A study of Homo sapiens with 6 samples.

Results

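miR-21 is made from a single hairpin, MIR21, and is represented in the count table by its arms hsa-miR-21-5p and hsa-miR-21-3p, which were chosen by name and were 2 of the 2656 mature miRNAs listed. They were followed in K562 cells, a human leukaemia line that carries the BCR-ABL1 fusion and that the labels describe as myeloblasts. The resistant cells had been grown for months in stepwise higher azacitidine, a cytidine analogue that traps DNA methyltransferases and lowers DNA methylation. They were compared with azacitidine-sensitive K562 cells, in 3 libraries per form that are labelled biological replicates, and both forms shared the same medium with serum and antibiotics. The letters NT close all 6 library names without an explanation, and the labels do not say whether cells were harvested in the presence of the drug. The labels name no separate selections of resistant cells, so p-values measure only the spread between these libraries.

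miR-21 is among the most widely expressed miRNAs and rises in many tumours. Its transcript is cut by Drosha and Dicer, and the 5p arm is the usual guide strand, which Argonaute proteins load and which represses PDCD4 and other inhibitors of growth and survival signalling. The 3p arm is the passenger strand, which is mostly degraded. STAT3, NF-kappaB and AP-1 are known to raise transcription of the gene.

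A pair of mature sequences and the hairpin carry what follows, and they come from RefSeq (GRCh38.p14). The mature sequences are shown because miR-21-5p and miR-590-5p were the 2 of 2370 mature miRNAs in the RefSeq table with the same seed, bases 2 to 8, given in capitals. In the hairpin the capitals mark miR-21-5p, which starts at its base 8.
miR-21-5p: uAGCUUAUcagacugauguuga
miR-590-5p: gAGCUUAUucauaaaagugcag
MIR21 hairpin: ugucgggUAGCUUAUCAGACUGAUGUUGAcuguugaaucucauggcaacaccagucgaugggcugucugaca

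The hairpin lies on the plus strand of chr17:59841266-59841337 (GRCh38), and miR-21-5p takes up chr17:59841273-59841294. MIR590 is on chromosome 7. In GENCODE 29, MIR21 falls within the protein-coding gene VMP1 (chr17:59707192-59842255, plus strand), and starts 174 bases past the last base of the protein-coding VMP1 transcripts. Of 17 VMP1 transcripts, 1 spans it, a retained-intron form in which the hairpin is exonic. The miR-21-5p sequence was found in 1 hairpin, and the closest other mature sequence in the table differed from it by 7 edits, so no near-identical miRNA of that table could share its reads.

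Library totals ran from 3291500 to 10644739 counts in resistant and from 5660055 to 12563945 counts in sensitive cells. Resistant replicate 3 stood apart. Across miRNAs, its log2 CPM (counts scaled to a common library size) gave r = 0.875 and 0.864 with resistant replicates 1 and 2, and these gave 0.995 with each other. miR-92a-3p, an oncogenic miRNA of the miR-17/92 cluster, took 58.6% of its reads, against 17.5% and 20.2% in the other resistant libraries and 10.5% to 14.3% in the sensitive ones. The 26 listed annotations that resemble fragments of other RNAs held 5.20% of its counts, against 1.07% and 1.09% in the other resistant and 1.12% to 1.73% in the sensitive libraries. Results are therefore given with and without that library. The blood miRNAs miR-142-3p, miR-142-5p and miR-223-3p had counts in every library and together held 0.104% of the counts in resistant replicate 3, 0.996% and 1.30% in the other resistant and 1.11% to 1.25% in the sensitive libraries. The erythroid miRNAs miR-486-5p, miR-451a and miR-144-3p together held 1.60%, 1.25% and 4.90% of the counts in resistant replicates 1 to 3 and 0.647%, 0.646% and 0.482% in sensitive replicates 1 to 3, mostly as miR-486-5p. miR-486-5p had a log2 fold change of 2.34 with all libraries (edgeR adjusted p = 0.130). It rose by 1.05 on the log2 scale without resistant replicate 3 (edgeR adjusted p = 0.00218). The other erythroid miRNAs did not go with it. miR-451a had -0.94 with all libraries and -0.49 without resistant replicate 3, and miR-144-3p had -0.41 and 0.09. Neither passed in either fit (edgeR adjusted p = 0.296 and 0.186 for miR-451a, 0.703 and 0.893 for miR-144-3p). Of 11 miRNAs of other tissues, miR-150-5p, miR-133a-3p, miR-124-3p, miR-205-5p and miR-203a-3p had at most 7 counts in any library. The 11 summed to 0.721% to 3.27% in resistant and 3.49% to 5.25% in sensitive libraries, mostly as the endothelial and stem cell miR-126-3p and the neural miR-9-5p. Of the 6 tested, 1 was called lower with all libraries, miR-145-5p (-1.76, edgeR adjusted p = 0.0467), where 2.08% of all tested miRNAs were. miR-143-3p went the other way, at 2.19 (edgeR adjusted p = 0.136), with groups that overlapped. In the fit without resistant replicate 3 there were 3 called lower and 1 higher, where 14.4% of all tested miRNAs were called lower and 13.7% higher. Those lower were miR-9-5p (-2.17, edgeR adjusted p = 0.000726), miR-145-5p (-1.63, edgeR adjusted p = 0.000726) and miR-126-3p (-0.82, edgeR adjusted p = 0.00883). The higher one was miR-143-3p (2.75, edgeR adjusted p = 9.6e-05). The part of these in the results was not tested. In bulk RNA such as this, fewer cells that make a miRNA and less of it per cell cannot be told apart.

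miR-21-5p, the guide arm, took a smaller share of the counts in each resistant library than in any sensitive one. It was read 720183, 884735 and 20901 times in resistant replicates 1 to 3, and 2174941, 1942423 and 903056 times in sensitive replicates 1 to 3. These are 8.67%, 8.31% and 0.635% of the resistant libraries, against 17.3%, 19.0% and 16.0% of the sensitive ones. Resistant replicates 1 and 2 lie close together, and resistant replicate 3 lies far below both. The exact 95% binomial intervals are narrow, at most from 15.92% to 15.99% in sensitive replicate 3, and cover counting error only. The mean share was 5.87 ± 4.54% in resistant and 17.4 ± 1.55% in sensitive cells (SD, n = 3 each; two-sided exact permutation p = 0.1, the smallest that 3 libraries against 3 allow). It was 8.49% over resistant replicates 1 and 2.

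miR-21-5p was the most abundant miRNA in all 3 sensitive libraries. Its rank was 2, 3 and 14 in resistant replicates 1 to 3. With the counts of miR-92a-3p taken out of the totals, its share was 10.9%, 10.1% and 1.54% in resistant and 20.03%, 21.3% and 18.6% in sensitive replicates 1 to 3. The gap between the groups, and the low value of resistant replicate 3, were thus also present without miR-92a-3p.

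miR-21-3p, the passenger arm, was also lower in each resistant library than in any sensitive one. It had 2251, 2461 and 181 counts in resistant and 4583, 3691 and 3017 counts in sensitive replicates 1 to 3. Its share was 0.0271% (exact 95% interval 0.0260% to 0.0282%), 0.0231% (0.0222% to 0.0241%) and 0.00550% (0.00473% to 0.00636%) in resistant replicates 1 to 3. In sensitive replicates 1 to 3 it was 0.0365% (0.0354% to 0.0375%), 0.0362% (0.0350% to 0.0374%) and 0.0533% (0.0514% to 0.0552%). Sensitive replicate 3, with the lowest share of miR-21-5p among the sensitive libraries, had the highest share of miR-21-3p. The mean was 0.0186 ± 0.0115% in resistant and 0.0420 ± 0.00980% in sensitive cells (SD, n = 3 each; two-sided exact permutation p = 0.1, again the smallest possible). Its rank was 175, 190 and 254 in resistant and 141, 142 and 122 in sensitive replicates 1 to 3.

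**Figure D1:**
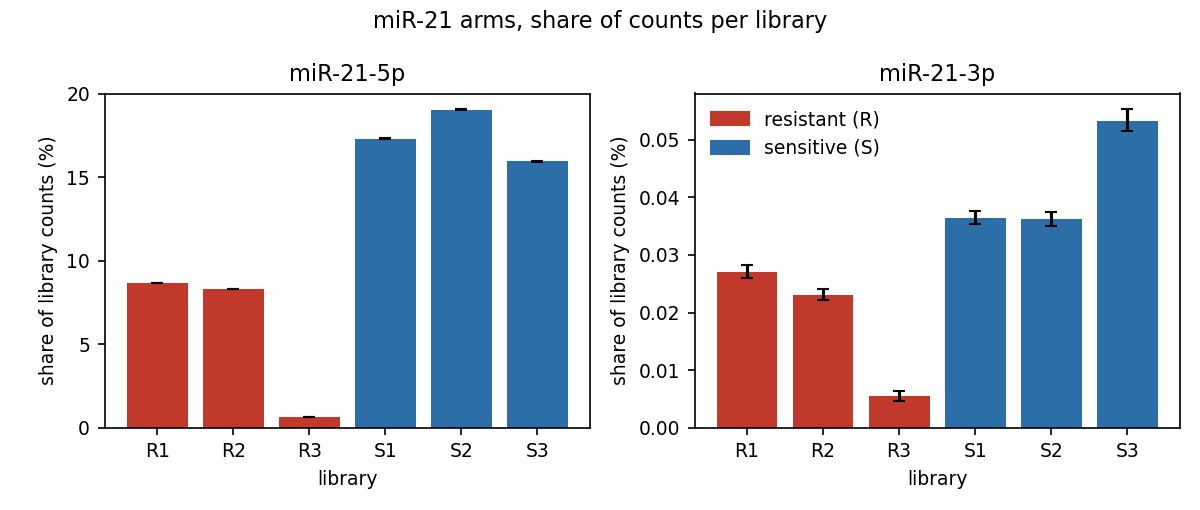
Share of library counts (%) of miR-21-5p (left) and miR-21-3p (right) in each resistant (R) and sensitive (S) library, with exact 95% binomial intervals as error bars. Every resistant library lies below every sensitive one for both arms, and resistant replicate 3 is lowest, at 0.635% for miR-21-5p and 0.00550% for miR-21-3p.

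Levels between the groups were compared with edgeR's quasi-likelihood test over the 768 miRNAs with enough counts, on CPM scaled by trimmed mean of M values (TMM) factors. miR-21-5p had 73281, 66742 and 8208 CPM in resistant and 180990, 198339 and 167048 CPM in sensitive replicates 1 to 3. That is 49410 ± 35831 CPM in resistant and 182126 ± 15676 CPM in sensitive cells (SD, n = 3 each), and a log2 fold change of -1.88 (SE 0.74). With all 6 libraries this did not pass the threshold of 0.05 (edgeR adjusted p = 0.166). miR-21-3p had 229, 186 and 71.1 CPM in resistant and 381, 377 and 558 CPM in sensitive replicates 1 to 3. Its log2 fold change of -1.44 (SE 0.51) did not pass either (edgeR adjusted p = 0.141).

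So 0 of the 2 arms were called with all 6 libraries, where 4.17% of all tested miRNAs were called, 16 higher and 16 lower in resistant cells (27 higher and 16 lower when scaled by library totals). Their unadjusted p-values were 0.0354 for miR-21-5p and 0.0230 for miR-21-3p, and 26.7% of all tested miRNAs had one under 0.05. For both arms the CPM of every resistant library was below that of every sensitive one, which was so for 22.9% of the tested miRNAs. With DESeq2 both arms were called lower (adjusted p = 0.0496 for miR-21-5p and 0.0355 for miR-21-3p), where it called 6.64% of the tested miRNAs lower. With no filter on low counts, miR-21-5p was called lower by edgeR (adjusted p = 0.0426), as were 2.71% of 1734 miRNAs, and miR-21-3p was not (adjusted p = 0.0940).

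Both arms were lowest in resistant replicate 3. miR-21-5p was 8.53-fold lower there than in the mean of resistant replicates 1 and 2, and miR-21-3p was 2.92-fold lower. Among the tested miRNAs, 10.3% lay further below resistant replicates 1 and 2 in that library than miR-21-5p did, and 31.8% further than miR-21-3p. Without it, miR-21-5p fell 2.51-fold, with a log2 fold change of -1.33 ± 0.16 (SE). The edgeR adjusted p of 8.43e-05 was the lowest over its alternatives, of which the highest was 0.367. miR-21-3p then fell 2.04-fold, with a log2 fold change of -1.03 ± 0.25 (SE). Its edgeR adjusted p of 0.00948 was likewise the lowest over its alternatives, of which the highest was 0.355. In those 5 libraries 14.4% of 822 tested miRNAs were called lower. None of the fits that left out another single library called either arm.

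**Figure D2:**
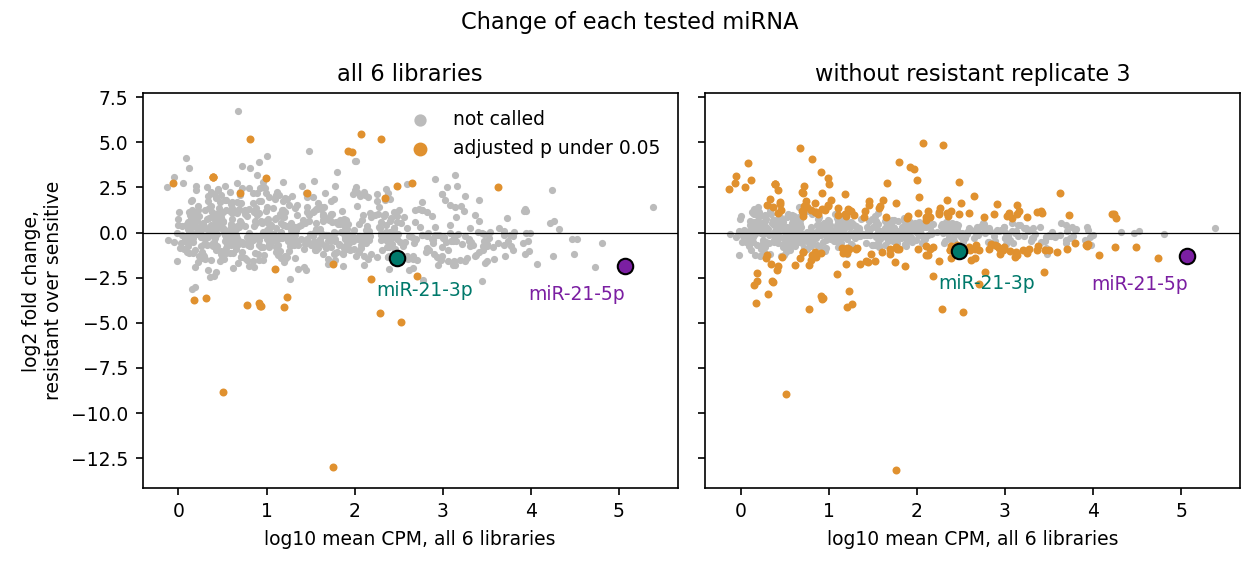
Log2 fold change, resistant over sensitive, of the 768 miRNAs tested with all libraries, against log10 mean CPM over all 6 libraries, with all libraries (left) and without resistant replicate 3 (right), where orange points passed an adjusted p of 0.05. miR-21-5p lies at -1.88 (left, not called) and -1.33 (right, called), and miR-21-3p at -1.44 (left, not called) and -1.03 (right, called); points below -7.5 had no counts in resistant libraries and their height depends on the prior count.

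miR-21-5p has a GC content of 36.4%, at or above that of 20.1% of the tested miRNAs with a known sequence, whose median was 47.8%. With a correction for GC content in each library, its log2 fold change was -1.47 (SE 0.48, edgeR adjusted p = 0.0847) with all libraries. The same correction without resistant replicate 3, which was chosen after seeing the data, gave -1.08 (SE 0.12, edgeR adjusted p = 0.000107), on the same side of the threshold as without the correction.

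Counts of miR-21-5p per count of another abundant miRNA of the same library need no scaling between libraries. There were 0.429, 0.475 and 0.0108 counts of miR-21-5p per count of miR-92a-3p in resistant and 1.27, 1.81 and 1.11 in sensitive replicates 1 to 3. Per count of miR-20a-5p, a growth-promoting miRNA of the miR-17/92 cluster, there were 1.06, 0.967 and 0.562 in resistant and 2.49, 2.08 and 2.70 in sensitive replicates 1 to 3. Per count of miR-17-5p, of the same cluster, there were 2.06, 1.68 and 0.682 in resistant and 4.55, 5.19 and 5.00 in sensitive replicates 1 to 3. Against these 3 miRNAs the groups did not overlap. All 3 are of the miR-17/92 cluster, so they are not independent references. How often such ratios keep the groups apart for other miRNAs was not computed. For CPM, 22.9% of the tested miRNAs were lower in every resistant library than in any sensitive one. They did overlap against miR-381-3p, of the imprinted miRNA cluster at 14q32, with 2.87, 1.82 and 1.62 in resistant and 2.39, 3.13 and 1.42 in sensitive replicates 1 to 3. miR-381-3p itself had a log2 fold change of -1.93 with all libraries (edgeR adjusted p = 0.148) and fell by 1.41 on the log2 scale without resistant replicate 3 (edgeR adjusted p = 0.00238).

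**Figure D3:**
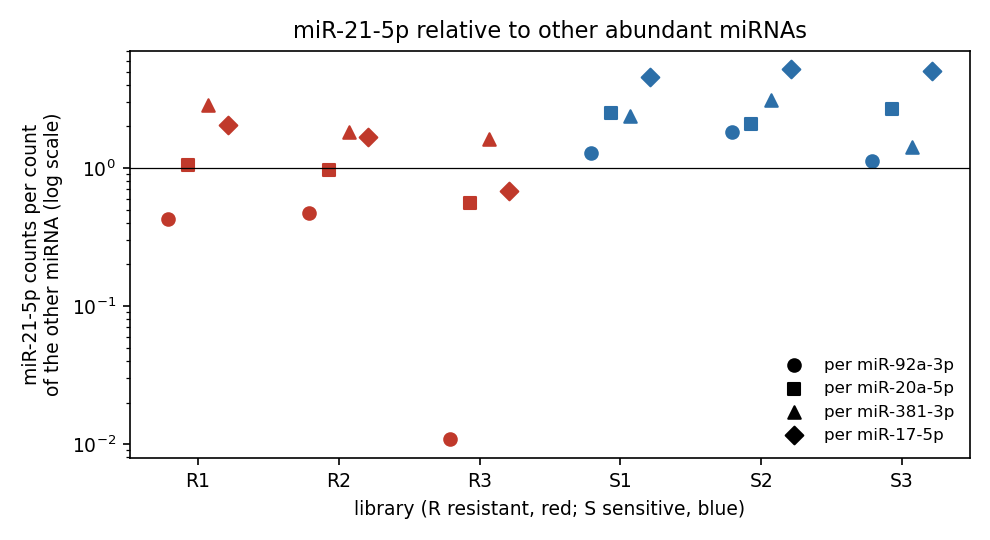
Counts of miR-21-5p per count of each of the other 4 most abundant miRNAs (log axis, one symbol per miRNA) in each resistant (R, red) and sensitive (S, blue) library. Resistant libraries lie below sensitive ones per count of miR-92a-3p, miR-20a-5p and miR-17-5p, and overlap with them per count of miR-381-3p.

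The ratio of both arms within a library asks whether guide and passenger strand moved by the same amount. There were 320, 360 and 115 counts of miR-21-5p per count of miR-21-3p in resistant replicates 1 to 3, and 475, 526 and 299 in sensitive replicates 1 to 3. Sensitive replicate 3 lies below resistant replicates 1 and 2, so the groups overlap, and resistant replicate 3 is lowest. In 22.8% of the arm pairs described next the groups did not overlap. The mean ratio was 265 ± 131 in resistant and 433 ± 119 in sensitive cells (SD, n = 3 each; two-sided exact permutation p = 0.3). Expressed the other way, miR-21-3p made up 0.483 ± 0.326% of the counts of both arms in resistant and 0.244 ± 0.0775% in sensitive cells (SD, n = 3 each).

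Rows of both arms existed under the same name, with at least 10 counts on average in each, for 206 hairpin names. Over these, the log2 ratio of 5p to 3p counts was compared with limma. That of miR-21 was 7.89 ± 0.90 in resistant and 8.72 ± 0.43 in sensitive cells (SD, n = 3 each). The difference of -0.83 (SE 0.53, 95% interval -2.05 to 0.39, limma adjusted p = 0.436) did not pass, and the median over all pairs was 0.16. The limma test called 1.46% of the pairs, which are 3, all with a higher ratio in resistant cells. Without resistant replicate 3 the difference for miR-21 was -0.31 (95% interval -0.96 to 0.33, limma adjusted p = 0.644; range over its alternatives 0.267 to 0.704), in a fit that called 1.94% of the pairs. The intervals thus reach from a 4.15-fold lower to a 1.31-fold higher ratio with all libraries, and from a 1.94-fold lower to a 1.26-fold higher one without resistant replicate 3.

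In its use of arms miR-21 was among the most one-sided of the 206 hairpin names compared. By the mean log2 ratio over the 6 libraries its rank in favour of the 5p arm was 4 of 206, at 8.30. With both directions counted, 10 pairs were more uneven than miR-21. Hairpins with fewer than 10 counts on average in either arm were not compared, so a ratio this uneven can only be seen for abundant miRNAs. Hairpins whose arm names differ beyond the 5p or 3p ending were not paired either, however abundant. The rank therefore holds among these 206 pairs only. The 5p arm was the more abundant one in 49.5% of the pairs, and the median size of the log2 ratio was 2.90 in either direction. Just above miR-21 were miR-20a (8.95) and miR-134 (8.31), and just below it miR-345 (8.18) and miR-181b (7.91). The ratios of miR-20a, miR-134 and miR-345 differed between resistant and sensitive cells by -0.34, 0.05 and -0.59 on the log2 scale, and none of these passed (limma adjusted p = 0.597, 0.946 and 0.516). The ratio of miR-181b was higher in resistant cells (limma adjusted p = 0.00314). Its 3p arm had no counts there, so the size of that difference depends on the 0.5 counts added to both arms. Adapter ligation favours some RNA ends over others, so a ratio of counts is not a ratio of molecules.

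**Figure D4:**
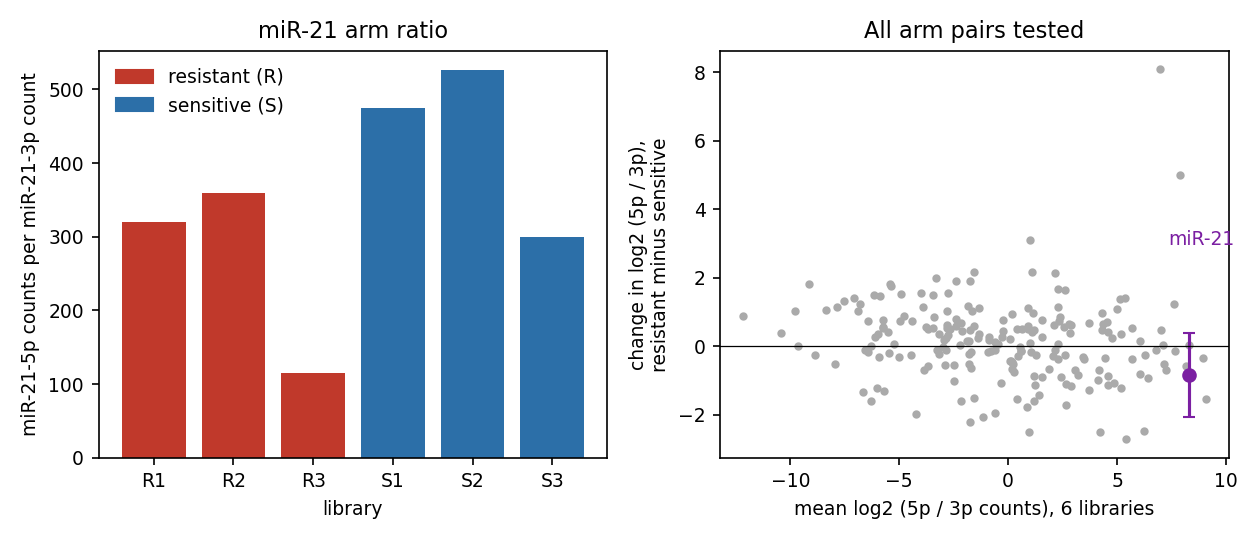
Left, counts of miR-21-5p per count of miR-21-3p in each resistant (R) and sensitive (S) library. Right, change in log2 (5p/3p counts), resistant minus sensitive, against the mean log2 ratio for 206 arm pairs, with miR-21 in purple at 8.30 and -0.83 and its 95% interval of -2.05 to 0.39 as error bar.

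miR-590-5p, which shares the seed and so can pair with many of the same target sites, was scarce. It had 48, 63 and 1 counts in resistant and 45, 92 and 24 counts in sensitive replicates 1 to 3. The groups overlap, and the log2 fold change of -0.71 did not pass (edgeR adjusted p = 0.550; -0.24 and edgeR adjusted p = 0.725 without resistant replicate 3). Its mean over the 6 libraries was 4.60 CPM, against 115768 CPM for miR-21-5p.

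Other hairpins annotated within 2 Mb of MIR21 on chromosome 17 have 9 rows in the table, of which 6 were tested and miR-4736, miR-4729 and miR-4737 had too few counts. The tested rows are both arms of the blood miRNA miR-142 (1509.9 kb away), of miR-454 (703.4 kb) and of miR-301a (690.0 kb), which belongs to the seed family of miR-130 with miR-454. With all libraries 0 of the 6 were called, against 4.17% of all tested miRNAs, with a median log2 fold change of -0.24 against -0.11 over all tested miRNAs. Without resistant replicate 3, miR-454-5p (1.20 on the log2 scale, edgeR adjusted p = 0.00347) and miR-301a-5p (0.78, edgeR adjusted p = 0.0241) rose and 0 fell, in a fit where 13.7% of all miRNAs were called higher. The median was then 0.22 against 0.04 over all tested. In the same fit miR-142-3p had -0.17 and miR-142-5p -0.32, miR-454-3p 0.35 and miR-301a-3p 0.09, and none of these passed (edgeR adjusted p = 0.546, 0.283, 0.312 and 0.876). miR-142-3p was read 54801, 93314 and 1565 times in resistant and 86121, 73175 and 40849 times in sensitive replicates 1 to 3. The difference between the change of miR-21 and that of its neighbours was not tested.

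Of 14 listed miRNAs reported, like miR-21, to be induced by NF-kappaB, STAT3 or AP-1, 13 were tested. With all libraries 1 fell and 0 rose, where 2.08% of all tested miRNAs were called lower and as many higher, and the median log2 fold change was -1.29 against -0.11 over all tested miRNAs. The member that fell was miR-125b-5p, a stem and progenitor cell miRNA, at 1.72 ± 0.350 CPM in resistant and 30.3 ± 2.89 CPM in sensitive cells (SD, n = 3 each; edgeR adjusted p = 0.00219). The neural miR-9-5p, next by adjusted p, had 767 ± 477 CPM in resistant and 4857 ± 2142 CPM in sensitive cells and did not pass (edgeR adjusted p = 0.0727). miR-17-5p and miR-146b-5p, the most abundant members, had log2 fold changes of -0.35 and -1.29 (edgeR adjusted p = 0.662 and 0.194). Without resistant replicate 3, 8 fell and 1 rose, where 14.4% of all tested miRNAs were called lower and 13.7% higher, and the median was -0.82 against 0.04 over all tested. Those that fell, with their log2 fold changes, were miR-125b-5p (-4.15), miR-9-5p (-2.17), miR-222-3p (-1.80), miR-221-3p (-1.73), miR-181b-5p (-1.58), the granulocyte miRNA miR-223-3p (-0.99), and the NF-kappaB feedback miRNAs miR-146a-5p and miR-146b-5p (-0.82 each). The member that rose was miR-10b-5p (1.80), from the HOXD locus. The list was chosen with earlier results of these data known, so its counts are not a separate test. Whether its members changed through a shared cause was not tested.

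Of 7 listed miRNAs reported to repress PDCD4, a translation inhibitor, 6 were tested and 0 were called with all libraries, where 4.17% of all tested miRNAs were called. Their median log2 fold change was -0.08, against -0.11 over all tested miRNAs. miR-182-5p and miR-183-5p, of 1 cluster on chromosome 7 and the most abundant members, had log2 fold changes of 0.61 and 1.00 (edgeR adjusted p = 0.540 and 0.174), and miR-424-5p had -1.17 (edgeR adjusted p = 0.257). miR-96-5p, of the same cluster as miR-182-5p and miR-183-5p, had -0.03 (edgeR adjusted p = 0.984). Without resistant replicate 3, miR-182-5p (1.07, edgeR adjusted p = 0.0310) and miR-183-5p (1.15, edgeR adjusted p = 0.00756) rose and 0 fell, where 13.7% of all tested miRNAs were called higher and 14.4% lower. miR-96-5p, at 0.52, did not pass in that fit (edgeR adjusted p = 0.158). The median was then 0.20, against 0.04 over all tested. This list, too, was chosen with earlier results of these data known.

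The miRNAs whose log2 CPM over the 6 libraries was most like that of miR-21-5p, among 468 others with a mean of at least 10 CPM, were miR-199b-5p (Pearson's r = 0.997), miR-495-3p (0.996), miR-452-5p (0.996), miR-224-5p (0.995) and miR-889-3p (0.995). With the libraries farthest from the median left out, resistant replicate 3 and sensitive replicate 2, these r were 0.973, 0.993, 0.982, 0.976 and 0.987 over 4 libraries. miR-199b-5p had 97.6 ± 73.0 CPM in resistant and 391 ± 45.7 CPM in sensitive cells, and miR-495-3p, of the 14q32 cluster, had 684 ± 391 CPM in resistant and 2008 ± 208 CPM in sensitive cells (SD, n = 3 each). Without resistant replicate 3, miR-199b-5p, miR-495-3p, miR-452-5p and miR-889-3p fell by 1.43, 1.09, 0.76 and 0.90 on the log2 scale. miR-224-5p, at -0.42, did not pass (edgeR adjusted p = 0.105). In that fit 14.4% of 822 tested miRNAs were called lower. All 5 were chosen for their likeness to miR-21-5p in these same libraries, so their falls are not a separate result. The points share library and scaling, and groups that stand apart raise r for any miRNA that differs between them, so these r describe likeness only.

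miR-21-3p was 74th in that order (r = 0.962). Most like miR-21-3p itself were miR-4677-3p (r = 0.998), miR-548am-3p (0.993), miR-199a-3p and miR-199b-3p (0.989 each) and miR-145-3p (0.987), while miR-21-5p was 23rd. The rows of miR-199a-3p and miR-199b-3p hold the same values, so they count as 1 pattern. The libraries farthest from the median of miR-21-3p were resistant replicate 3 and sensitive replicate 3. Without them, over 4 libraries, r was 0.997 for miR-4677-3p, 0.994 for miR-548am-3p, 0.933 for that pattern and 0.989 for miR-145-3p. miR-145-3p had 10.8 ± 5.66 CPM in resistant and 45.4 ± 6.79 CPM in sensitive cells (SD, n = 3 each; edgeR adjusted p = 0.0727). Without resistant replicate 3, miR-4677-3p, miR-199a-3p and miR-145-3p fell by 0.82, 0.95 and 1.65 on the log2 scale. miR-548am-3p, at -0.50, did not pass (edgeR adjusted p = 0.147). In that fit 14.4% of 822 tested miRNAs were called lower. These miRNAs, too, were chosen for likeness in the same libraries, so their falls are not a separate result.

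**Figure D5:**
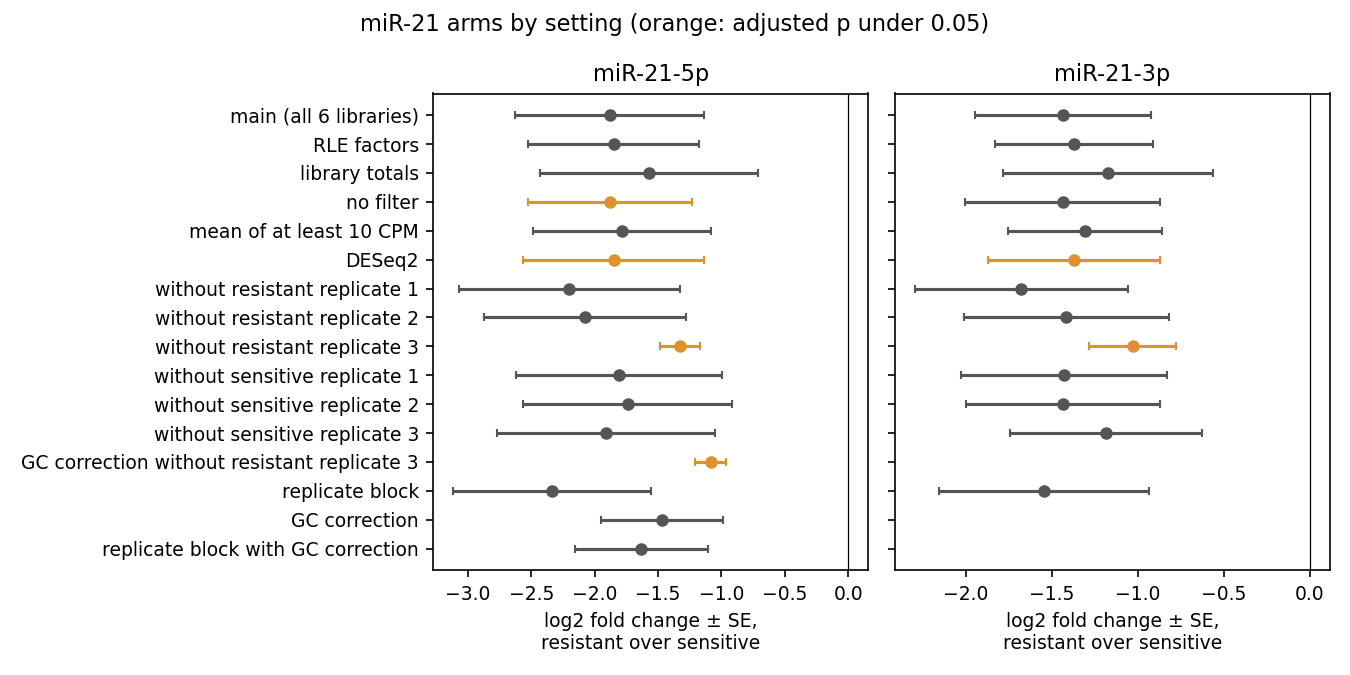
Log2 fold change, resistant over sensitive, of miR-21-5p (left) and miR-21-3p (right) under each setting, with the standard error as error bar and orange where the adjusted p was under 0.05. No GC-corrected value was computed for miR-21-3p. All values lie below 0, from -2.34 to -1.08 for miR-21-5p and from -1.68 to -1.03 for miR-21-3p.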

How the data were processed

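Small RNA of 3 resistant and 3 sensitive K562 libraries was sequenced after TriPure extraction, DNase treatment and NEBNext small RNA library preparation on a NovaSeq instrument, per the labels' protocols. The authors deposited raw read counts per mature miRNA (2656 rows), which were used as deposited. Per the submitters' processing notes, reads were placed on GRCh38. The aligner, the counter, the miRBase release and the handling of shared reads and isomiRs were not given in the sources used here. Counts carry no molecular identifiers.

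edgeR 4.0.16 in R 4.3.3 compared 768 miRNAs that passed filterByExpr (minimum count 10, total 15), with TMM factors, the quasi-likelihood test, no covariates and Benjamini-Hochberg adjustment at 0.05. Each SE is approximate, the size of the log2 fold change over the root of its F statistic. limma 3.58.1 compared log2((5p + 0.5)/(3p + 0.5)) over 206 arm pairs, with a variance trend on the scarcer arm. DESeq2 1.42.0 was an alternative. The GC correction was a loess per library (span 0.75) on the mature sequence, known for 88.2% of tested miRNAs and not for miR-21-3p. The edgeR and limma fits were also run on simulated counts with a common dispersion and no outlying library. That check cannot tell how they behave with resistant replicate 3. Replicate pairs differed by a chi-square per degree of freedom of 124 to 4015, so none was a repeat deposit.

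Named were both arms, the 5 most abundant miRNAs, the 5 most like each arm, the neighbours by arm ratio, and from each list the 2 most abundant members and the 2 lowest by adjusted p, besides all seed and neighbourhood members. Members of the lists of induced and PDCD4-repressing miRNAs that passed without resistant replicate 3 were added after their values were seen, as was miR-96-5p. Members and lists were chosen with earlier results of these data known. Fragment-like and tissue lists served to check the libraries and are given mainly as sums, an exception to that rule. A list of miRNAs that share another target gene is not reported here.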

Additional observations from a re-analysis of the deposited data

How the results depend on the processing

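Direction held for both arms, for their shares and for the arm ratio under every alternative tried, and the calls did not. For miR-21-5p the call was gained with DESeq2 (log2 fold change -1.85), without a filter (-1.88) and, as an alternative added after seeing the data, with a GC correction without resistant replicate 3 (-1.08, edgeR adjusted p = 0.000107). For miR-21-3p it was gained with DESeq2 (-1.37). Leaving out 1 library gave -2.20 to -1.33 for miR-21-5p and -1.68 to -1.03 for miR-21-3p, each called only without resistant replicate 3. The number of miRNAs called, 32, was 21 with RLE factors, 14 with a mean of at least 10 CPM, 149 with DESeq2, 162 without a filter, 73 with the GC correction, 51 with the replicate block and the GC correction, 190 with the GC correction without resistant replicate 3, and 4 to 231 when 1 library was left out. Calls of arm ratios, 3, were 1 with a pseudocount of 5 and 2 to 4 when 1 library was left out. The difference of the arm ratio then ran from -1.13 to -0.31 on the log2 scale. The shares then differed by -12.96 to -8.95 percentage points for miR-21-5p and by -0.0277 to -0.0169 for miR-21-3p, where an exact permutation p cannot go under 0.2. The cause of these changes was not tested.

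Scaling moved the median log2 fold change of all tested miRNAs, from -0.11 with TMM to -0.01 with RLE factors and 0.09 with library totals, where miR-21-5p had -1.88, -1.85 and -1.57 and miR-21-3p -1.44, -1.37 and -1.18. The labels give both groups replicate numbers 1 to 3. Deviations of same-numbered libraries correlated at -0.06, 0.26 and 0.13. Replicates 2 and 3 of each group correlated best with their own number. Resistant replicate 1 did so with sensitive replicate 2 (0.20), and sensitive replicate 1 with resistant replicate 3 (0.11). With 3 libraries per group these values cannot settle whether the numbers mark pairs, and the main fits did not use them. A fit with these numbers as a replicate block gave miR-21-5p -2.34 (edgeR adjusted p = 0.164), miR-21-3p -1.55 (edgeR adjusted p = 0.206) and the arm ratio -0.83 (limma adjusted p = 0.287), and 23 miRNAs were called. Depth does not limit miR-21-5p. The 181 counts of miR-21-3p in resistant replicate 3 put its share there between 0.00473% and 0.00636%.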
